A study of Mus musculus with 12 samples.

Results

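Isoproterenol stimulates β-adrenergic receptors and, infused for weeks, drives the heart from compensated hypertrophy towards failure. The RNA described here is that of 5 genes with little described role in macrophages (Mφ) that were chosen by their RNA level in the isoproterenol libraries against saline, in cardiac Mφ of such hearts, Cyth1, Wdfy1, Syngr1, 2010111I01Rik and Ttc39c. They were found by their symbols among the 24445 genes of the count files, all 5 were present, and all 5 were among the 14608 genes that passed the filter on low counts. The same libraries that chose these genes gave the values below, so their levels and their differences from control are a description and carry no test.

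The Mφ came from the hearts of adult male C57BL6/J mice carrying osmotic pumps, with 4 mice and 4 libraries in each of 3 groups. Ct mice received saline. How long each of them was infused is not stated. ECH mice, with concentric hypertrophy, received isoproterenol at 30 mg/kg/day for 14 days, and HF mice, with heart failure, received 30 mg/kg/day for 28 days. Hearts were digested with collagenase, leukocytes were enriched on anti-CD45 beads, and CD14+/CD64+ cells were sorted by FACS from a CD11b+ gate, so that no group holds untouched tissue and each library is a mixture of all cells in the gate.

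The 5 proteins belong to unrelated families. Cytohesin-1, the product of Cyth1, is a guanine nucleotide exchange factor that loads ARF GTPases with GTP and binds the tail of β2 integrins in leukocytes. WDFY1 carries WD repeats and a FYVE domain that binds phosphatidylinositol 3-phosphate on early endosomes, and it has been described as an adaptor that brings TRIF to Toll-like receptors TLR3 and TLR4. Synaptogyrin-1 (Syngr1) is a membrane protein of synaptic vesicles that spans the membrane several times. 2010111I01Rik is the older symbol of Aopep, which encodes aminopeptidase O, a zinc peptidase of the M1 family. Ttc39c encodes a protein with tetratricopeptide repeats whose function is poorly known.

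Library totals ranged from 88466559 to 111180291 counts, and 13600 to 15940 genes had a count above 0, the lowest number being that of HF library 1. Library numbers in the labels repeat, which splits the libraries into set A (all Ct libraries with ECH 1 and 2) and set B (ECH 3 and 4 with all HF libraries). No source states that the sets differ in preparation or sequencing. HF and Ct share no set, so their direct difference cannot be told apart from a difference between sets. A fit with the library set as a covariate takes the set difference from ECH 1 and 2 against ECH 3 and 4 alone. ECH 3 and 4 also share the first part of their label code, as do Ct 1 and 2, Ct 3 and 4, and HF 1 and 2, and the meaning of the code is not given. Levels are given as CPM, the share of the library total that a count makes up, scaled by the trimmed mean of M values (TMM). Fewer cells expressing a gene and less of its RNA per cell cannot be told apart in these sorted pools.

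The RNA of all 5 genes was higher in ECH than in Ct Mφ, with fold changes from 2.38 for Cyth1 to 6.42 for Syngr1, and the ECH and Ct libraries of each gene did not overlap. In HF Mφ, 3 of the 5 genes (Wdfy1, Syngr1 and 2010111I01Rik) were again more than 2 times the Ct level, Cyth1 was at 1.64 times and Ttc39c at 1.785 times the Ct level, both below their ECH levels, and only for Ttc39c did HF and Ct libraries overlap. Where a call needed both a fold change of 2 or more and an FDR under 0.05, edgeR called all 5 genes higher in ECH and 3 higher in HF, where 0.267% of all genes tested were called higher in ECH and 0.267% in HF. The choice of the genes used these contrasts, and nothing is read from these counts. Over all genes, every ECH library lay above every Ct library for 4.33%, every HF library above every Ct library for 4.59%, and all 8 isoproterenol libraries above all Ct libraries for 1.3%. All 8 isoproterenol libraries lay above all Ct libraries for 4 of the 5 genes, and 7 of 8 did so for Ttc39c.

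**Figure D1:**
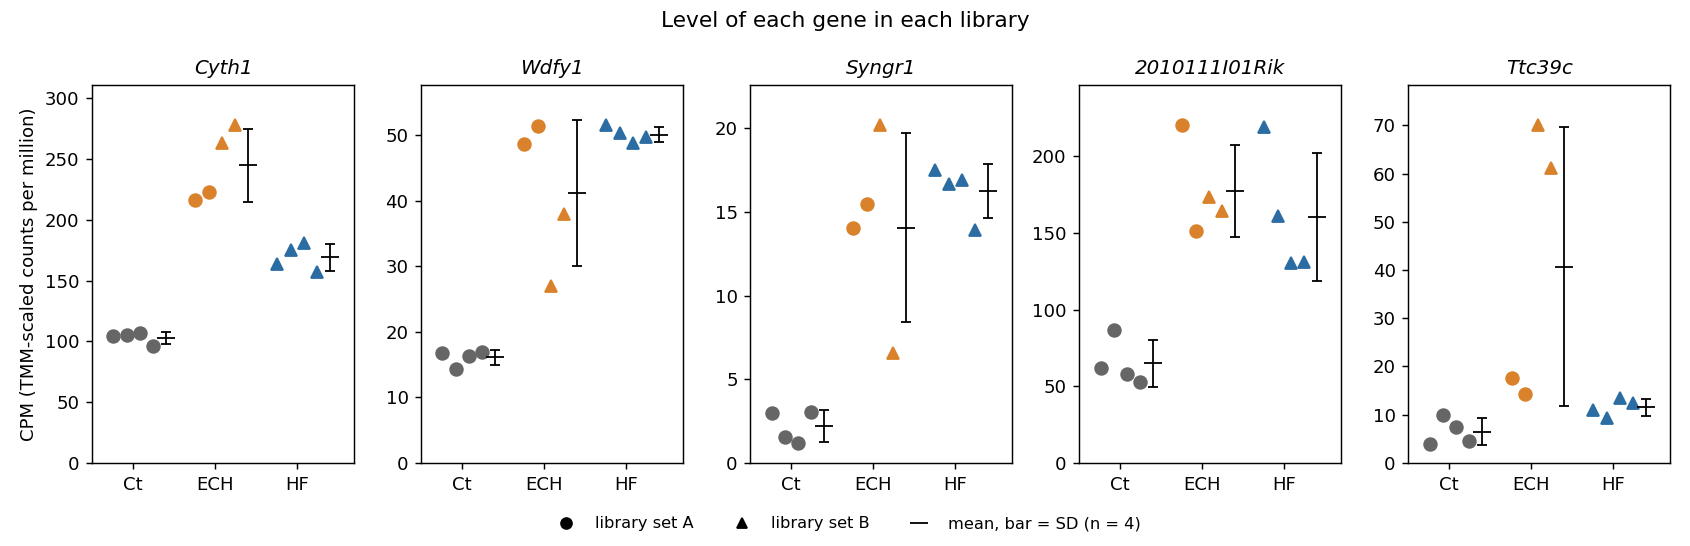
CPM of each gene in each library (points, 4 mice a group, circles for library set A and triangles for set B), with the group mean and SD beside them and a separate linear axis from 0 for each gene. ECH and Ct points do not overlap for any gene, and the Ttc39c points of ECH form a pair at 14.2 and 17.5 and a pair at 61.1 and 70.0.

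Cyth1 was the most abundant of the 5 genes per length of transcript. Its gene lies on the minus strand of chromosome 11 (GRCm38, 118132019-118248592, 7 annotated transcripts). Its level was 104, 105, 106.5 and 95.9 CPM in the Ct libraries, 216, 223, 263 and 278 CPM in the ECH libraries, and 163, 175, 181 and 157 CPM in the HF libraries. The 3 groups thus stood apart, with no library of one group inside the range of another. The group means were 103 ± 4.86 CPM in Ct, 245 ± 30.1 in ECH and 169 ± 10.96 in HF (SD, n = 4).

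On the log2 scale of the fit, Cyth1 was 1.25 above Ct in ECH (SE 0.12) and 0.71 above Ct in HF (SE 0.12), the latter being below a fold of 2. With the library set as a covariate the HF value was 0.41 (SE 0.17). HF was 0.54 lower than ECH (log2 difference -0.54, SE 0.12, unadjusted p = 0.000436, FDR = 0.491 with edgeR's quasi-likelihood test), which did not pass the threshold. Every HF library lay below every ECH library, as was the case for 3.56% of all genes tested. No gene of the 14608 was called between HF and ECH (0%, lowest FDR = 0.338, 1165 genes at an unadjusted p under 0.05), and the test is not independent of the choice of genes since the ECH libraries served both. Within library set A, ECH libraries 1 and 2 averaged 219.6 CPM against 103 in Ct, and within set B ECH libraries 3 and 4 averaged 270.4 CPM against 169 in HF.

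The other cytohesins were at other levels and none was called. Per kilobase of the longest transcript, Cyth4, the cytohesin typical of leukocytes, stood at 219.7 ± 46.6 CPM/kb in Ct, above Cyth1 at 32.4 ± 1.53, Cyth2 at 19.9 ± 2.16 and Cyth3 at 12.98 ± 1.43 CPM/kb. In ECH the level of Cyth1 was 77.1 ± 9.46 CPM/kb and that of Cyth4 206.5 ± 63.1. The log2 difference of ECH from Ct was -0.09 (SE 0.21) for Cyth4, -0.02 (SE 0.13) for Cyth2 and 0.44 (SE 0.17, FDR = 0.331) for Cyth3. Every ECH library of Cyth3 lay above every Ct library, at 86.7 ± 6.98 CPM against 63.95 ± 7.06 CPM.

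Genes that act with cytohesins did not pass the test either. Arf6, a substrate GTPase at the plasma membrane, was at 186 ± 29.1 CPM in Ct, 200.5 ± 38.8 in ECH and 241 ± 32.0 in HF. Arf1, the GTPase of the Golgi, was at 463, 534 and 541 CPM in the same order. Itgb2, the β2 integrin chain whose tail binds cytohesin-1, was at 408 ± 148 CPM in Ct, 659 ± 34.2 in ECH and 639 ± 82.0 in HF, with log2 differences from Ct of 0.69 (SE 0.21, FDR = 0.198) and 0.65 (SE 0.21, FDR = 0.182). Its partner Itgal, the αL chain, had a log2 difference of -0.46 (SE 0.25) in ECH and -0.63 (SE 0.25, FDR = 0.247) in HF. Cytip, which binds cytohesin-1, was at 115 ± 33.2 CPM in Ct and 144 ± 33.9 in ECH, and Ipcef1, another cytohesin-binding protein, at 17.3 ± 4.93 and 11.8 ± 4.57 CPM. Psd3, Acap1 and Iqsec2 of the same list had log2 differences from Ct of -0.89 (SE 0.27, FDR = 0.192), -1.365 (SE 0.42, FDR = 0.209) and -0.70 (SE 0.31, FDR = 0.404) in ECH. Of the 29 genes of the cytohesin and ARF list all were tested, and 0 were called in any comparison in the fit without the library set. With the set as a covariate Psd3 was called in HF against ECH (log2 difference 1.21, FDR = 0.0138). In the fit without the set, 5, 6 and 2 of the list had an unadjusted p under 0.05 with edgeR's quasi-likelihood test in ECH against Ct, HF against Ct and HF against ECH, as did 11.9%, 16.1% and 7.98% of all genes tested. Their median log2 difference in ECH against Ct was -0.07, where that of all genes was 0.01.

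Wdfy1 stayed high at 28 days. The gene is on the minus strand of chromosome 1 (GRCm38, 79702262-79776143, 14 annotated transcripts). Its Ct libraries held 16.7, 14.4, 16.3 and 16.97 CPM, its ECH libraries 48.6, 51.4, 26.9 and 38.0 CPM, and its HF libraries 51.5, 50.3, 48.8 and 49.7 CPM. ECH libraries 1 and 2 were at the HF level, and ECH libraries 3 and 4 lay between the Ct and HF levels. The means were 16.1 ± 1.19 CPM in Ct, 41.2 ± 11.1 in ECH and 50.1 ± 1.10 in HF (SD, n = 4), and the coefficient of variation in HF was 2.2%, the lowest of the 5 genes in any group.

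The log2 difference of Wdfy1 from Ct was 1.36 (SE 0.185) in ECH and 1.64 (SE 0.19) in HF, and with the library set as a covariate that of HF was 2.26 (SE 0.24). HF differed from ECH by 0.28 (SE 0.18, FDR = 0.749), and these groups overlapped. Within set A the mean of ECH 1 and 2 was 49.98 CPM against 16.1 in Ct, and within set B that of ECH 3 and 4 was 32.5 against 50.1 in HF.

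A list of genes that differ in sequence or RNA level between C57BL/6 substrains was set beside Wdfy1, and 2 of its 5 tested members divided the ECH mice in the same way. ECH 1 and 2 are of library set A and ECH 3 and 4 of set B, and both libraries of one set lay above both of the other for 54.4% of all genes tested. For 3.22% ECH 1 and 2 and all HF libraries were in addition beyond every Ct library on that side, as for Wdfy1, Nnt and Entpd4. Nnt, the mitochondrial transhydrogenase that carries a deletion in C57BL/6J mice, was at 10.6 to 39.2 CPM in Ct, at 67.6 and 83.7 CPM in ECH 1 and 2, at 29.7 and 18.6 CPM in ECH 3 and 4, and at 49.1 to 85.0 CPM in HF. Entpd4, a nucleotide-hydrolysing enzyme of the Golgi and lysosome, ran the other way, at 54.7 to 93.7 CPM in Ct, 38.5 and 37.1 CPM in ECH 1 and 2, 82.8 and 98.75 CPM in ECH 3 and 4, and 29.3 to 48.7 CPM in HF. For both genes ECH 1 and 2 thus lay on the side of HF and outside the Ct range, and ECH 3 and 4 on the side of Ct. The other 3 did not separate these pairs in that way, with Cyfip2 at 9.87 to 14.5 CPM in ECH 1 and 2 and from 10.54 CPM in ECH 3 and 4, and with the same pairs at 1.148 to 1.154 against 0.458 to 2.40 CPM for Nlrp12, and 58.8 to 64.45 against 41.15 to 58.95 CPM for Ide. Over the 12 libraries the Pearson correlation of log2 CPM with Wdfy1 was 0.705 for Nnt, -0.678 for Entpd4, -0.649 for Cyfip2, 0.392 for Ide and 0.183 for Nlrp12, as a description of points that share 3 groups.

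For HF against Ct, the log2 difference was 1.21 for Nnt (SE 0.46, FDR = 0.233) and -0.99 for Entpd4 (SE 0.31, FDR = 0.169), neither past the threshold, and the HF and Ct libraries did not overlap for either gene. Every HF library lay below every Ct library for 4.45% of all genes, and above for 4.59%. Of the 7 genes of the list, 5 were tested and 0 were called with edgeR's quasi-likelihood test, and 0, 3 and 1 had an unadjusted p under 0.05 in ECH against Ct, HF against Ct and HF against ECH, where the shares of all genes were 11.9%, 16.1% and 7.98%. The other tested members were Ide, at 52.8, 55.8 and 64.85 CPM in Ct, ECH and HF, Cyfip2, at 19.5, 12.5 and 12.3 CPM, and Nlrp12, at 1.37, 1.29 and 1.99 CPM. Crb1 had no count and Gabra2 at most 4 counts in any library. The labels give C57BL6/J for every mouse, and the part of genetic background in the Wdfy1 difference was not tested.

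**Figure D2:**
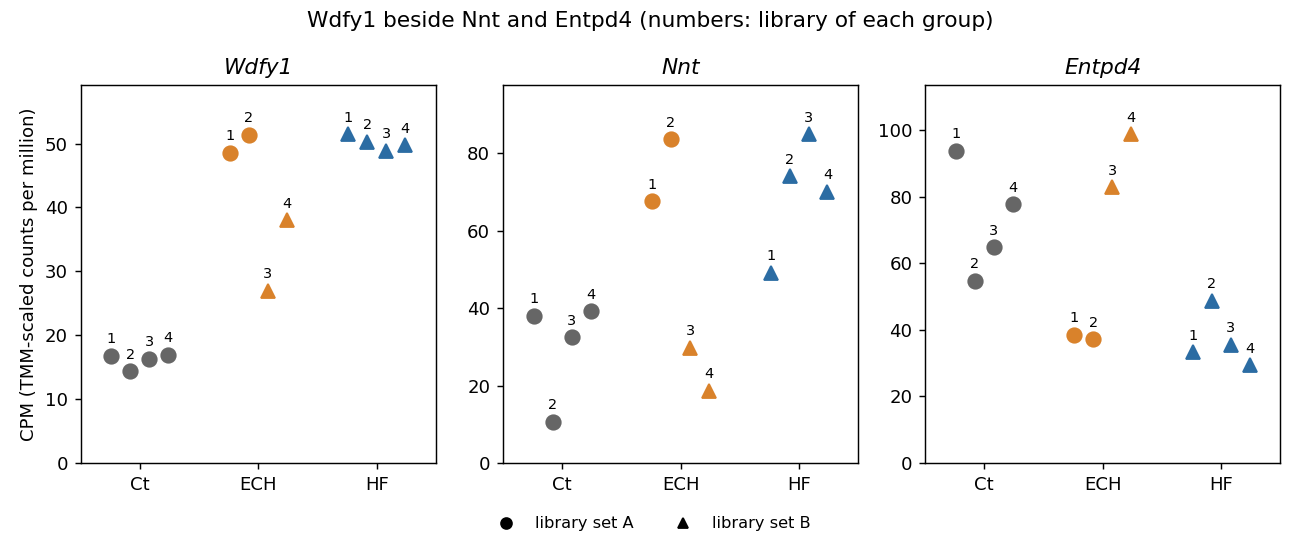
CPM of Wdfy1, Nnt and Entpd4 in each library (numbered points, circles for library set A and triangles for set B), each on a linear axis from 0. ECH libraries 1 and 2 lie with HF for all 3 genes, and ECH libraries 3 and 4 lie within or next to the Ct range for Nnt and Entpd4 and between the Ct and HF points for Wdfy1.

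The genes named like Wdfy1 and the pathway it is placed in did not pass the test. Wdfy2 was at 30.5 ± 6.61 CPM in Ct, 35.8 ± 4.89 in ECH and 26.0 ± 7.22 in HF. Wdfy3, a scaffold of selective autophagy, was at 262 ± 59.9, 259.5 ± 43.2 and 209.7 ± 28.7 CPM, and Wdfy4, known for cross-presentation in dendritic cells, at 40.15 ± 5.71, 32.1 ± 9.55 and 29.5 ± 6.46 CPM. Tlr4, the lipopolysaccharide receptor, had a log2 difference of 0.42 in ECH against Ct (SE 0.19, FDR = 0.406), and Tlr3, the receptor of double-stranded RNA, one of 0.36 (SE 0.43, FDR = 0.793). Ticam1, which encodes TRIF, was at 14.97 ± 8.10 CPM in Ct and 10.9 ± 2.96 in ECH, and Ticam2, the bridging adaptor of TLR4, at 71.1 ± 23.2 and 75.5 ± 8.91 CPM.

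Further down this pathway, Tbk1, the kinase that phosphorylates IRF3, was at 86.2, 61.7, 83.6 and 89.15 CPM in Ct and at 115, 95.6, 141 and 147.5 CPM in ECH, without overlap. Its log2 difference of 0.64 (SE 0.18, FDR = 0.157) had the lowest FDR of all related genes in ECH against Ct and was not called. Traf3 and Irf3 had log2 differences of -0.40 (SE 0.32) and -0.09 (SE 0.17). Ifnb1, the interferon-β gene that the pathway induces, ranged from 0.755 to 11.2 CPM in Ct, from 0 to 3.96 CPM in ECH and from 0 to 2.97 CPM in HF. All 20 genes of this list were tested, and 0 were called with edgeR's quasi-likelihood test. In ECH against Ct, HF against Ct and HF against ECH, 2, 0 and 1 had an unadjusted p under 0.05, where the shares of all genes were 11.9%, 16.1% and 7.98%.

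Every isoproterenol library of Syngr1 lay above every Ct library. The gene lies on the plus strand of chromosome 15 (GRCm38, 80091334-80119501, 4 annotated transcripts). Ct libraries held 296, 133, 119 and 314 counts, or 2.96, 1.55, 1.20 and 3.04 CPM. ECH libraries held 14.0, 15.5, 20.2 and 6.56 CPM and HF libraries 17.5, 16.7, 16.9 and 13.9 CPM. ECH library 4 was the lowest of the isoproterenol libraries, at more than 2 times the highest Ct library, and the other 3 ECH libraries lay around the HF range. The means were 2.19 ± 0.948 CPM in Ct, 14.1 ± 5.65 in ECH and 16.25 ± 1.61 in HF (SD, n = 4).

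The log2 difference of Syngr1 from Ct was 2.68 (SE 0.38) in ECH and 2.89 (SE 0.39) in HF, and that between HF and ECH was 0.21 (SE 0.36, FDR = 0.955). Without ECH library 4 the last value was -0.027. Within set A ECH 1 and 2 averaged 14.7 CPM against 2.19 in Ct, and within set B ECH 3 and 4 averaged 13.4 CPM against 16.25 in HF.

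Per length of transcript, Syngr1 stood below Syngr2 and Sypl in every group. Syngr2, the synaptogyrin of non-neuronal cells, was at 138 ± 15.5 CPM/kb in Ct, 152 ± 14.99 in ECH and 182 ± 7.55 in HF, where Syngr1 was at 0.523 ± 0.227, 3.36 ± 1.35 and 3.89 ± 0.385 CPM/kb. Syp, at 4.275 ± 0.984 in Ct, 3.42 ± 1.29 in ECH and 3.84 ± 0.981 CPM/kb in HF, was near the level of Syngr1 in both isoproterenol groups. Every HF library of Syngr2 lay above every Ct library, and its log2 difference of 0.40 (SE 0.12, FDR = 0.15) was not called. The synaptophysin relatives Sypl and Syp were at 164 ± 15.9 and 12.15 ± 2.80 CPM in Ct, with log2 differences in ECH of 0.12 (SE 0.14) and -0.32 (SE 0.30). Syngr3 ranged from 0 to 2.11 CPM over all libraries, and Syngr4, Sypl2 and Synpr, 3 of the 7 genes of the list, did not pass the filter, with at most 35, 26 and 1 counts in a library. Of the 4 tested, 0 were called in any comparison with edgeR's quasi-likelihood test. In ECH against Ct, HF against Ct and HF against ECH, 0, 1 and 1 had an unadjusted p under 0.05, where the shares of all genes were 11.9%, 16.1% and 7.98%.

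2010111I01Rik was high at both times. It spans 361 kb on the plus strand of chromosome 13 (GRCm38, 62964893-63326096, 28 annotated transcripts). Its level was 61.7, 87.0, 58.1 and 52.9 CPM in Ct, 220.2, 151.5, 173 and 164.5 CPM in ECH, and 219, 161, 131 and 131 CPM in HF. Ct library 2 was the highest Ct library and ECH library 1 and HF library 1 the highest of their groups, and all isoproterenol libraries lay above Ct library 2. The means were 64.9 ± 15.2 CPM in Ct, 177 ± 29.9 in ECH and 160.5 ± 41.5 in HF (SD, n = 4).

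The log2 difference of 2010111I01Rik from Ct was 1.45 (SE 0.21) in ECH and 1.31 (SE 0.21) in HF. It was called in HF in 18 of 22 alternative settings and not with the library set as a covariate or without Ct library 1, Ct library 4 or HF library 2, and in ECH in 21 of 23, not without Ct library 1 or within the set. The contrasts against Ct chose the gene, so these counts describe how the call depends on the fit and are no test. The log2 difference between HF and ECH was -0.14 (SE 0.20, FDR = 0.936). Within set A ECH 1 and 2 averaged 186 CPM against 64.9 in Ct, and within set B ECH 3 and 4 averaged 169 CPM against 160.5 in HF.

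Among the aminopeptidases of the M1 family, Anpep (CD13), a surface peptidase of myeloid cells, was present at a lower level, 4.77 ± 2.11 CPM in Ct, 8.69 ± 1.76 in ECH and 11.9 ± 1.51 in HF, with all HF libraries above all Ct libraries. Its log2 difference of 1.32 in HF against Ct (SE 0.33, FDR = 0.0984) had the lowest FDR of all related genes in that comparison and was not called by edgeR's quasi-likelihood test, whereas it was called by DESeq2 (FDR = 0.00482), by the likelihood ratio test (FDR = 0.0169) and by limma-voom (FDR = 0.0385). Rnpep, aminopeptidase B, was at 185 ± 38.5 CPM in Ct, 226.5 ± 54.9 in ECH and 265 ± 17.2 in HF, with a log2 difference of 0.52 in HF (SE 0.19, FDR = 0.224). Lnpep, a peptidase of endosomal vesicles, was at 26.0 ± 3.82, 38.2 ± 8.94 and 24.5 ± 8.28 CPM.

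Of the other 7 listed aminopeptidases 0 were called. Erap1, which trims antigenic peptides in the endoplasmic reticulum, had a log2 difference of 0.25 (SE 0.22) in ECH, Lta4h, the leukotriene A4 hydrolase, one of 0.04 (SE 0.14), Npepps one of -0.20 (SE 0.19), with -0.45 (SE 0.19, FDR = 0.273) in HF, and Rnpepl1 one of 0.06 (SE 0.19) in ECH. Enpep ranged from 0 to 7.004 CPM, and Lvrn and Trhde did not pass the filter. Of the 8 tested, 0 were called with edgeR's quasi-likelihood test. An unadjusted p under 0.05 was found for 1, 3 and 1 of the 8 in ECH against Ct, HF against Ct and HF against ECH. The shares of all genes were 11.9%, 16.1% and 7.98%. Per kilobase, 2010111I01Rik went from 18.5 ± 4.32 in Ct to 50.55 ± 8.52 CPM/kb in ECH, where Lta4h was at 20.65 ± 3.07 and 21.2 ± 2.35, Erap1 at 12.2 ± 4.06 and 14.6 ± 2.20, and Rnpep at 80.8 ± 16.8 and 99.0 ± 23.98 CPM/kb. It was thus above Erap1 and below Rnpep in both groups.

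Ttc39c was highest in 2 of the 4 ECH mice. The gene lies on the plus strand of chromosome 18 (GRCm38, 12599896-12738863, 8 annotated transcripts). Its Ct libraries held 3.83, 9.93, 7.51 and 4.52 CPM, its ECH libraries 17.5, 14.2, 70.0 and 61.1 CPM, and its HF libraries 10.95, 9.27, 13.4 and 12.4 CPM. ECH libraries 3 and 4 were more than 3 times ECH libraries 1 and 2, and the HF libraries lay between ECH 1 and 2 and the Ct libraries, with HF 2 inside the Ct range. The means were 6.45 ± 2.82 CPM in Ct, 40.7 ± 28.9 in ECH and 11.5 ± 1.80 in HF (SD, n = 4), and the coefficient of variation in ECH was 71.1%, the highest of the 5 genes in any group.

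The log2 difference of Ttc39c from Ct was 2.66 (SE 0.50) in ECH and 0.84 (SE 0.47) in HF. HF was lower than ECH by a log2 difference of -1.82 (SE 0.48, unadjusted p = 0.00226, FDR = 0.491 with edgeR's quasi-likelihood test), and it was not called. Every HF library lay below every ECH library, as for 3.56% of all genes tested. The ECH libraries also served to choose Ttc39c, so tests of HF against ECH are not independent of the choice. Within set A ECH 1 and 2 averaged 15.9 CPM against 6.45 in Ct, a log2 difference of 1.29 (SE 0.43), and within set B ECH 3 and 4 averaged 65.5 CPM against 11.5 in HF. With the set as a covariate the log2 difference of HF from Ct turned to -1.21 (SE 0.48), and HF against ECH was called at a log2 difference of -2.51 (SE 0.33). The contrasts against Ct chose Ttc39c, so its calls over the settings are a description and no test. Of the 23 alternative settings, 8 called Ttc39c in ECH against Ct. It lost the call without Ct library 1, 3 or 4, without ECH library 3 or 4 and without any one of the HF libraries, with log2 differences between 2.26 and 2.945 over all libraries left out in turn.

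The relatives of Ttc39c did not pass the test. Ttc39b, a regulator of liver X receptor turnover, was at 46.1 ± 9.24 CPM in Ct, 58.1 ± 8.42 in ECH and 41.3 ± 6.58 in HF, with log2 differences of 0.33 (SE 0.18, FDR = 0.498) in ECH against Ct and -0.49 (SE 0.18, FDR = 0.564) in HF against ECH. Per kilobase it stood at 5.22 ± 1.05 in Ct and 6.58 ± 0.954 CPM/kb in ECH, where Ttc39c was at 1.47 ± 0.643 and 9.28 ± 6.60 CPM/kb. Ttc39a was at most 3.16 CPM and Ttc39d had no count in any library, where 3 counts would be 0.0259 to 0.0349 CPM. Of the 2 tested members of the list 0 were called with edgeR's quasi-likelihood test. In ECH against Ct, HF against Ct and HF against ECH, 0, 0 and 1 had an unadjusted p under 0.05, where the shares of all genes were 11.9%, 16.1% and 7.98%.

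**Figure D3:**
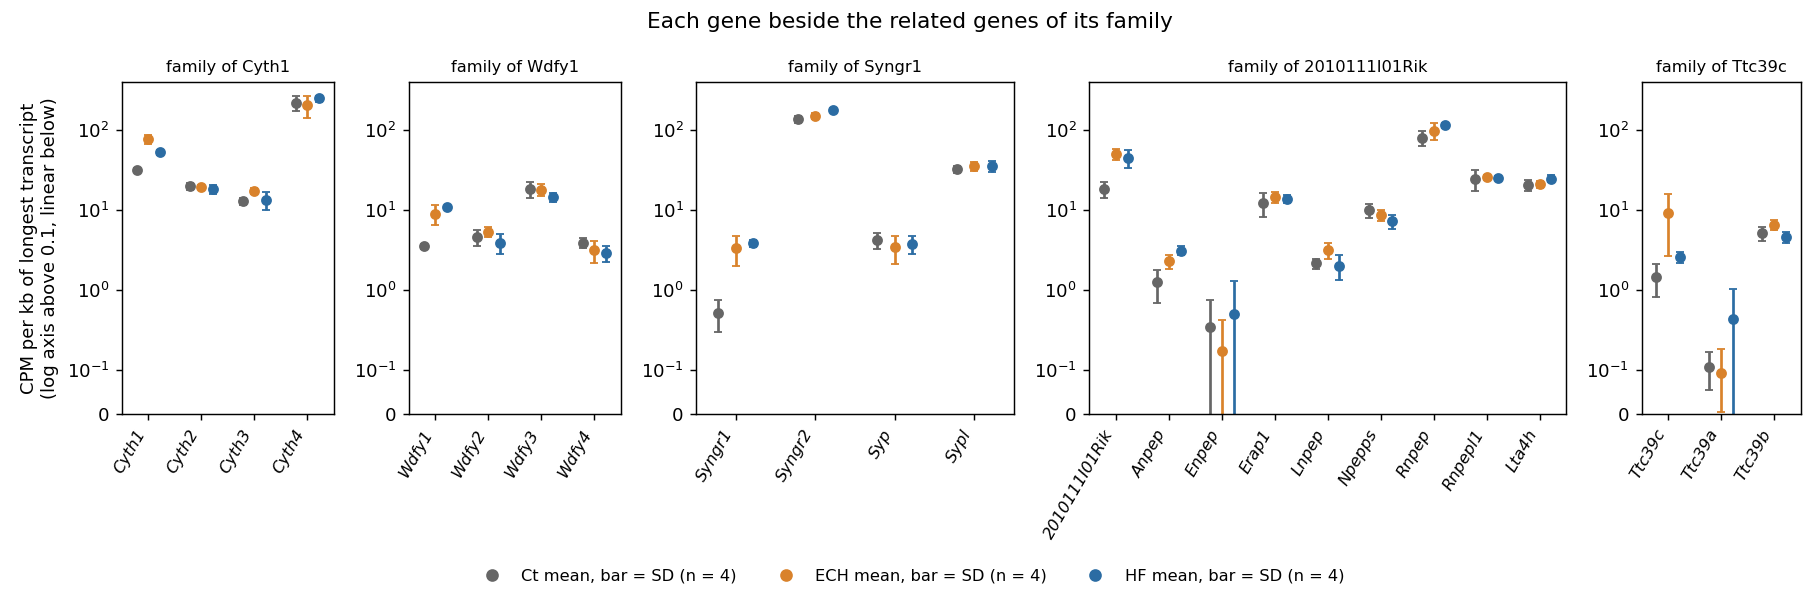
Mean CPM per kilobase of the longest transcript (bars, SD, n = 4) for each of the 5 genes and the relatives of its family with a mean of at least 1 CPM in a group, on an axis that is logarithmic above 0.1 and linear below. Syngr1, at 0.523 in Ct and 3.36 in ECH, stays below Syngr2 at 138 to 182, and Cyth1 stays below Cyth4 in every group.

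Over all 5 families and pathways, 69 genes were listed and 63 were tested. With edgeR's quasi-likelihood test in the fit without the library set, 0 were called in any of the 3 comparisons, where 0.356% of all genes were called in ECH against Ct and 0.377% in HF against Ct. With the set as a covariate Psd3 was called in HF against ECH. In the fit without the set, 8, 10 and 6 of the 63 had an unadjusted p under 0.05 in ECH against Ct, HF against Ct and HF against ECH, of which 5, 5 and 1 were higher in the first group. The shares of all genes tested at that p were 11.9%, 16.1% and 7.98%, so the counts of the list stood near the background. The log2 differences in ECH against Ct ranged from -1.78 for Ifnb1 to 2.22 for Syngr3, with a median of 0.01, equal to that of all genes.

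**Figure D4:**
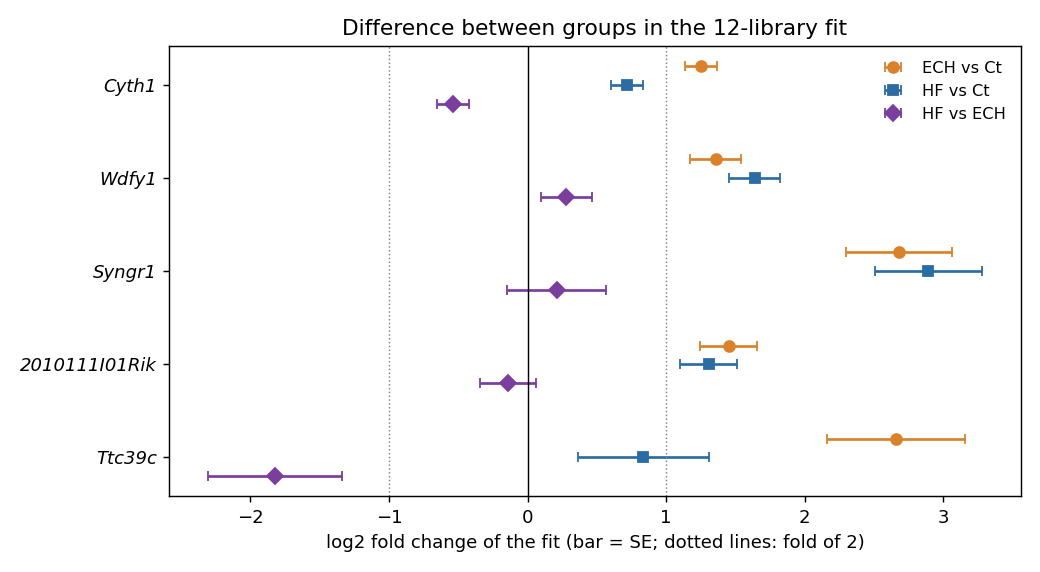
Log2 fold change of the 12-library fit for each gene (points) with its SE (bars) in ECH against Ct, HF against Ct and HF against ECH, with dotted lines at a fold of 2. All values of ECH against Ct lie above 1, those of HF against Ct above 1 for 3 genes, and those of HF against ECH range from -1.82 for Ttc39c to 0.28 for Wdfy1.

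The 5 genes did not follow one pattern. Over the 12 libraries the Pearson correlation of log2 CPM between them ranged from 0.373 for Wdfy1 and Ttc39c to 0.891 for Wdfy1 and Syngr1, and that of Cyth1 and Ttc39c was 0.875. Cyth1 and Ttc39c were highest in ECH 3 and 4, whereas Wdfy1 was lowest among the isoproterenol libraries in the same mice. These values describe 12 points that share 3 groups and 2 library sets.

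For each gene, the 3 tested genes whose log2 CPM was most alike over the 12 libraries were found. They were chosen for this likeness, so a pattern that they share with the gene follows from the choice. Cyth1 was most like Adam8, a membrane metalloprotease of leukocytes (Pearson r = 0.953), Tmem104, a membrane protein (r = 0.912), and Cdk20, a cyclin-dependent kinase (r = 0.912). Adam8 was at 37.55 ± 3.78 CPM in Ct, 279 ± 93.6 in ECH and 159.7 ± 34.9 in HF. It thus had the order of Cyth1, with ECH above HF above Ct, over a greater range.

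Wdfy1 was most like App, the amyloid precursor protein (r = 0.966), Ffar4, a receptor of long-chain fatty acids (r = 0.963), and Cfp, which encodes properdin, the stabiliser of the alternative complement convertase (r = 0.959). App was at 756 ± 155 CPM in Ct, 1639 ± 384 in ECH and 1764 ± 117 in HF, and Cfp at 272 ± 22.8, 570.2 ± 117 and 863 ± 134. Ffar4 had no count in any Ct library, where 3 counts would be 0.0290 to 0.0349 CPM, and 0.432 to 1.77 CPM in the isoproterenol libraries.

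Syngr1 was most like Ctsd, the lysosomal protease cathepsin D (r = 0.978), Fabp5, a cytosolic fatty acid carrier (r = 0.955), and Gpnmb, a glycoprotein of lysosome-rich Mφ (r = 0.945). Ctsd was at 1030 ± 71.9 CPM in Ct, 2328 ± 475 in ECH and 2428 ± 194 in HF. Fabp5 was at 15.9 ± 2.44, 109.5 ± 45.4 and 124 ± 28.2 CPM, and Gpnmb at 11.1 ± 13.2, 285 ± 158 and 207 ± 39.5 CPM. ECH library 4, the lowest of the isoproterenol libraries for Syngr1, was also the lowest of them for Ctsd at 1647 CPM, whereas ECH library 1 was the lowest for Fabp5 at 64.5 CPM and for Gpnmb at 132.6 CPM.

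2010111I01Rik was most like Clec4d, a C-type lectin receptor of myeloid cells (r = 0.946), Ctla2a, a cysteine protease inhibitor (r = 0.922), and Htr7, a serotonin receptor (r = 0.915). Clec4d was at 30.3 ± 12.3 CPM in Ct, 113 ± 31.2 in ECH and 75.6 ± 21.99 in HF, and Ctla2a at 12.2 ± 7.14, 55.4 ± 19.02 and 87.85 ± 23.9. Htr7 had no count in any Ct library and 0.277 to 2.05 CPM in the isoproterenol libraries.

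Ttc39c was most like Snx10, a sorting nexin of endosomes (r = 0.956), Sephs2, a selenophosphate synthetase (r = 0.938), and Nlrx1, a mitochondrial NOD-like receptor (r = 0.932). Snx10 was at 116, 112.5, 197 and 169 CPM in the ECH libraries and at 76.0 to 92.9 CPM in Ct and 100.2 to 108 CPM in HF. Its ECH libraries formed the same pairs as those of Ttc39c, over a smaller range. These pairs are library sets A and B, and both ECH libraries of one set lay above both of the other for 54.4% of all genes tested. Snx10 was also chosen for its likeness to Ttc39c over the same libraries.

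**Figure D5:**
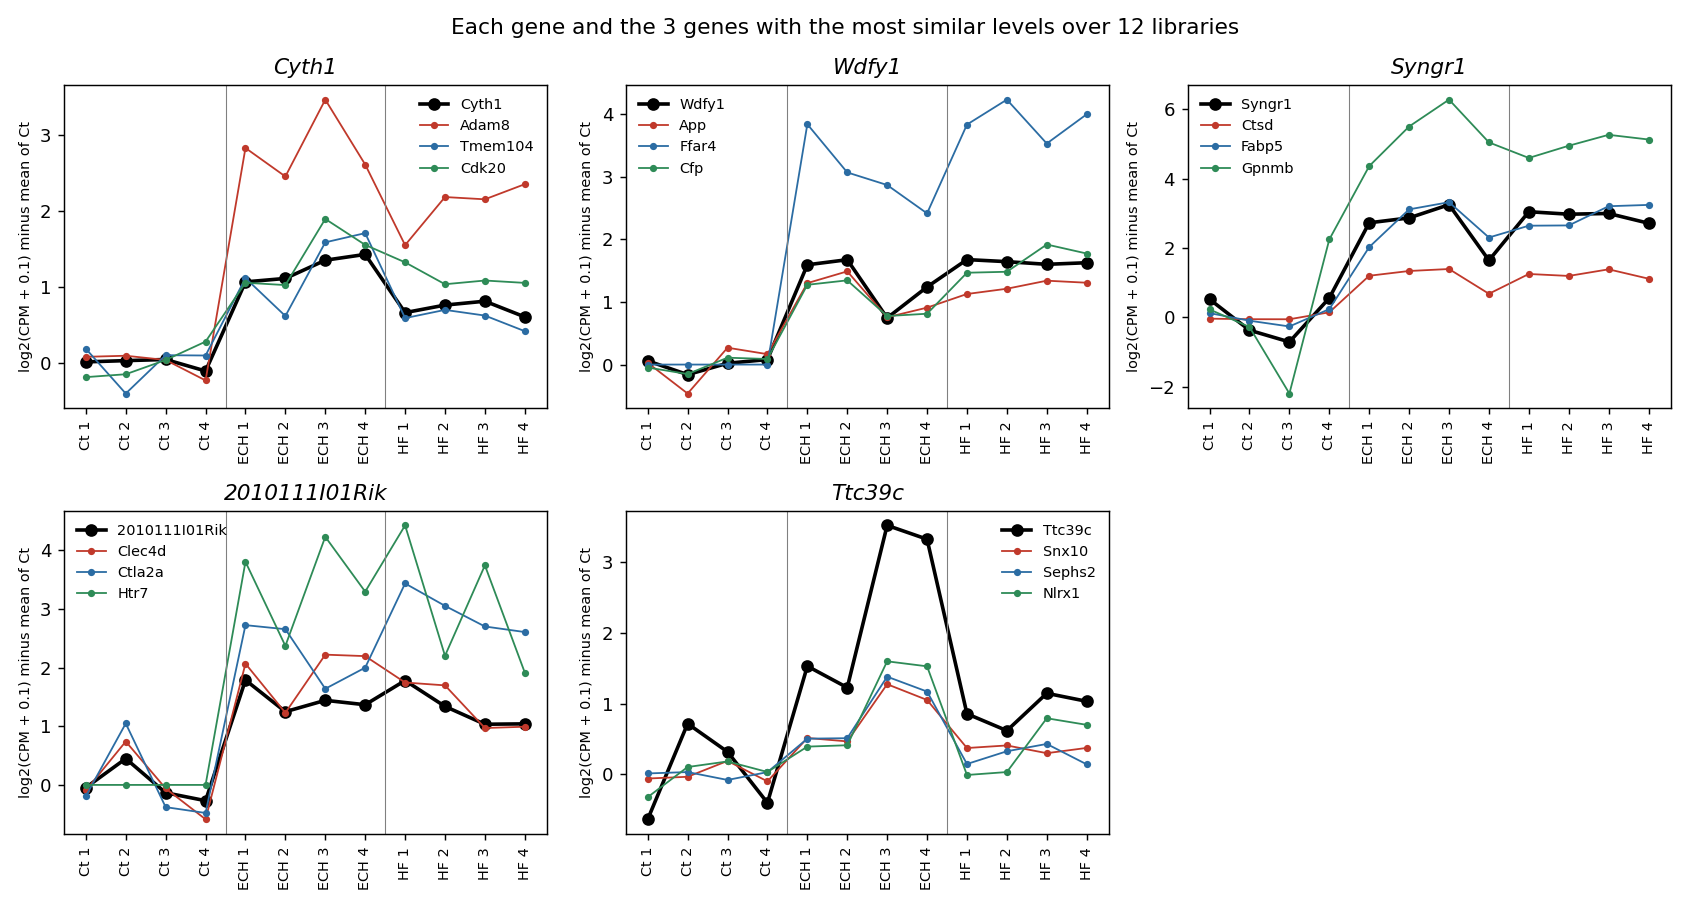
Log2(CPM + 0.1) minus the mean of the Ct libraries for each gene (thick black line) and its 3 most similar genes (thin lines) in the 12 libraries, with vertical lines between groups. Syngr1 and Ctsd dip together in ECH library 4, and Ttc39c and Snx10 are highest in ECH libraries 3 and 4. The similar genes were chosen on these same libraries, and ECH libraries 3 and 4 are those of set B.

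None of the nearest tested genes on the chromosome was called in any comparison. Cabyr, which begins 1458 bases beyond the end of Ttc39c on the same strand and encodes a calcium-binding protein of sperm, was at 2.04, 0.427, 7.92 and 5.17 CPM in ECH, at most 1.25 CPM in Ct and at most 0.509 CPM in HF. ECH 3 and 4 were thus its highest libraries, as for Ttc39c, whereas ECH 2 was inside the Ct range. Its log2 differences of 2.62 in ECH against Ct (SE 1.24, FDR = 0.428), -1.26 in HF against Ct (SE 1.19) and -3.88 in HF against ECH (SE 1.31, FDR = 0.546) were not called. On the other side Lama3, a laminin chain, was at most 1.14 CPM in any library.

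Next to Cyth1, the log2 difference in ECH against Ct was 0.45 (SE 0.55) for Dnah17, a dynein of cilia, and 0.43 (SE 0.26) for Usp36, a deubiquitinase of the nucleolus. Next to Wdfy1 it was -1.44 (SE 0.67, FDR = 0.424) for Ap1s3, a subunit of a clathrin adaptor whose ECH libraries all lay below Ct as for 3.64% of genes, and 0.28 (SE 0.21) for Mrpl44, a mitochondrial ribosomal protein. Next to Syngr1 it was -0.29 (SE 0.20) for the ribosomal protein gene Rpl3 and 0.18 (SE 0.21) for Tab1, an activator of the kinase TAK1. Next to 2010111I01Rik it was 1.96 (SE 0.97, FDR = 0.453) for Fbp1, an enzyme of gluconeogenesis, and 0.19 (SE 0.24) for the DNA repair gene Fancc.

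Some of these genes share bases with the 5 genes, and whether the counting used strand is not stated, so reads in shared exons cannot be assigned. Mrpl44 on the other strand shares 126 exonic bases with Wdfy1 and was at 18.1 CPM in ECH and 17.4 CPM in HF. Fancc overlaps 41054 bases of 2010111I01Rik, 185 of them exonic in both, and was at 10.2 CPM in ECH and 12.5 CPM in HF. The long noncoding RNA gene Gm16907 on the same strand as Fancc shares 90 exonic bases with 2010111I01Rik and held up to 2448 counts in a library. The annotation also places the microRNA genes Mir23b, Mir27b and Mir24-1 inside 2010111I01Rik on its strand, and they had no count in any library. Rpl3 overlaps the first 535 bases of Syngr1 and shares no exonic base with it.

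Binding of isoproterenol to its receptors raises cAMP, and the cAMP response element is the binding site of CREB. Promoter windows of RefSeq (GRCm38.p6), from 250 bases before to 50 bases after an annotated start, were therefore read for 3 of the 5 genes, with 3 windows for Cyth1 and 1 each for Syngr1 and Aopep (2010111I01Rik). Wdfy1 had no window in the table, and Ttc39c was not read. The motifs searched on both strands were the cAMP response element TGACGTCA, its 5-base part TGACG (contained in the former), the palindromic glucocorticoid response element and the E-box CACGTG. They were present in 1.79%, 20.8%, 0.00913% and 7.15% of the 32851 windows of the table.

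Of the 5 windows, 1 held a motif. This was TGACG in the window of 2010111I01Rik, in bases 222 to 226, beginning at position -29 from the annotated start. That window and those at the 5′-most start of Cyth1 and at the start of Syngr1 are printed in the direction of transcription because these genes were higher in all isoproterenol libraries, with the match in capitals and no match in the other windows.
2010111I01Rik (Aopep), plus strand, chr13:62964643-62964942: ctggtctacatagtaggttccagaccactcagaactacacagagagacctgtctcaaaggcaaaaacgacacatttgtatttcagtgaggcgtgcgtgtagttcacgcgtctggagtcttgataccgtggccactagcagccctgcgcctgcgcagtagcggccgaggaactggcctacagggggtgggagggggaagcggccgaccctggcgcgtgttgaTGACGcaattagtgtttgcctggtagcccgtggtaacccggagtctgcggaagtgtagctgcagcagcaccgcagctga
Cyth1, minus strand, chr11:118248509-118248808: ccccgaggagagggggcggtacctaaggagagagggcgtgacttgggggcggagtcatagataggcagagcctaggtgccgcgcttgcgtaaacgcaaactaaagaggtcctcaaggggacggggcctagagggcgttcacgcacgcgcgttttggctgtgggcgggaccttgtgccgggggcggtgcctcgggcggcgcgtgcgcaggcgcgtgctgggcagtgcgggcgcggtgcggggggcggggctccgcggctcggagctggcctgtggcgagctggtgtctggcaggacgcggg
Syngr1, plus strand, chr15:80091084-80091383: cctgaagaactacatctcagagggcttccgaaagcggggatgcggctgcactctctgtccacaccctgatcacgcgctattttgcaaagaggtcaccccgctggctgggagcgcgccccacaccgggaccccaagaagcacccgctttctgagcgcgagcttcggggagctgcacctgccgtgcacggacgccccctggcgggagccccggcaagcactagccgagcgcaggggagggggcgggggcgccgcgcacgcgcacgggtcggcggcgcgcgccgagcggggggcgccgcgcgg
The G and C content was 58.0% in the window of 2010111I01Rik, 71.3% in that of Cyth1 and 72.3% in that of Syngr1, against a median of 52.7% over all windows, and the CpG dinucleotides numbered 19, 35 and 38 against a median of 7. The other windows of Cyth1, which lie further inside the gene, had 4 and 8 CpG. A match or its absence describes these letters only.

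The sorted cells carried the markers of Mφ. The summed level of 9 Mφ markers (Cd14, Fcgr1, Csf1r, Adgre1, Cd68, Mertk, Cx3cr1, Itgam and Lyz2) was 22450 to 24720 CPM in Ct, 21940 to 32260 in ECH and 23680 to 31200 in HF, with none of them at 0 and none called. Lyz2 alone had a mean of 14150 CPM in Ct. At an unadjusted p under 0.05 against Ct were Mertk (a mean of 117 CPM in Ct and 317 in ECH, log2 difference 1.43, FDR = 0.101) and Itgam (373 and 709 CPM, 0.92, FDR = 0.132) in ECH, and Cd68 (0.41, FDR = 0.126), Itgam (0.63, FDR = 0.239) and Lyz2 (0.40, FDR = 0.303) in HF. Cx3cr1 was at 205 CPM in Ct and 105 CPM in ECH (-0.97, FDR = 0.451). Of the marker lists of other cells, that of B cells had sums that did not overlap between Ct and the isoproterenol groups. The sum of 3 B cell markers (Cd79a, Cd79b and Ms4a1) was 72.5 to 340.2 CPM in Ct, 29.8 to 62.8 in ECH, and 39.96 to 66.0 in HF, with ECH and HF below every Ct library. None of these was called by edgeR, and all 3 had an unadjusted p under 0.05 against Ct in ECH (lowest FDR = 0.05002, Cd79a) and in HF (lowest FDR = 0.0764, Cd79a). The sum of 5 neutrophil markers was 319 to 1533 CPM in Ct, 158 to 440 in ECH and 115 to 1202 in HF, and that of 6 T and NK cell markers was 13.5 to 58.9, 3.46 to 23.8 and 7.53 to 17.4 CPM, with no gene of either list called. At an unadjusted p under 0.05 there were 1 and 3 of them in ECH against Ct and 1 and 1 in HF against Ct, all lower than in Ct. The shares of all genes at that p were 11.9% in ECH against Ct and 16.1% in HF against Ct.

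Among 3 markers of resident Mφ, Timd4 was called lower in ECH (log2 difference -1.62, SE 0.30, FDR = 0.0341, where 0.089% of all genes were called lower in ECH and 0.11% in HF) and not in HF (-0.93, SE 0.29, FDR = 0.172). Folr2 had log2 differences of -0.56 (FDR = 0.216) and -0.22 and Lyve1 of 0.39 (FDR = 0.677) and 0.15 in ECH and HF, none called, and the sum of the list was 1216 to 2700 CPM in Ct against 1417 to 2004 CPM in ECH and 1325 to 1737 CPM in HF. The sums of 3 monocyte markers (214 to 504, 317 to 587 and 475 to 798 CPM in Ct, ECH and HF), 5 dendritic cell markers (60.85 to 174, 67.8 to 86.6 and 48.5 to 69.1 CPM), 5 endothelial markers (5.25 to 22.6, 8.31 to 22.9 and 4.72 to 16.9 CPM), 5 fibroblast markers (26.5 to 170, 64.6 to 383 and 72.4 to 210 CPM) and 5 cardiomyocyte markers (61.1 to 196, 63.3 to 135 and 48.95 to 85.1 CPM) overlapped between ECH and Ct, with no gene called. Among the dendritic cell markers, Ccr7 had log2 differences from Ct of -1.75 in ECH (FDR = 0.0707) and -1.51 in HF (FDR = 0.105), and Flt3 had differences of 3.09 in ECH (FDR = 0.123) and 1.85 in HF (FDR = 0.264), all at an unadjusted p under 0.05 with edgeR. The other markers of these 5 lists at that level were Ly6c2, of monocytes, in ECH against Ct (1.05, FDR = 0.310) and, in HF against Ct, Ccr2, of monocytes (0.90, FDR = 0.169), and Myl2 and Tnni3, of cardiomyocytes (-1.59, FDR = 0.127, and -0.76, FDR = 0.264). Of 3 erythroid markers 2 were at 0 in every library of each group. The part of these cells in the differences of the 5 genes was not tested.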

How the data were processed

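RNA of sorted cardiac Mφ from 12 mice (4 Ct, 4 ECH, 4 HF, grouped by their labels) was sequenced after SMART-Seq v4 cDNA synthesis. As their methods state, the authors trimmed the paired reads with Trimmomatic (reads under 40 bases dropped), aligned them to mm10 with TopHat2 and counted genes with featureCounts. The deposited files list raw counts for 24445 symbols, with no scaling. Versions, annotation and strand setting are not given. Repeated PCR copies are not marked, so a limit of 3 counts covers counting error only.

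Counts were filtered with filterByExpr (14608 genes left), scaled by TMM and fitted in a single model of 12 libraries with edgeR 4.0.16 (R 4.3.3, quasi-likelihood test, Benjamini-Hochberg over all genes). The common biological coefficient of variation was 60.8%. Calls needed a fold change of 2 or more together with an FDR below 0.05. P-values measure the spread between mice. Correlations used log2(CPM + 0.1). Positions and lengths came from GENCODE M21 of GRCm38. The code was tested on simulated data.

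The 5 genes and all lists were chosen with earlier results of these data known. Also named were paralogs and partners of each gene, its 3 most similar genes, its tested neighbours and listed genes called. Alternatives were the likelihood ratio test, DESeq2 1.42.0, limma-voom (limma 3.58.1) with quality weights, RLE scaling, other filters, separate fits of each pair of groups, a block for the replicate number, a covariate for the library set, and leaving out each library. Fits without Ct library 2 and HF library 1, and within a set, were chosen after seeing the data. A listed cell type marker is not reported here.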

Additional observations from a re-analysis of the deposited data

Results flagged for a closer look

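The spread of 4 libraries was checked in 54 groups of values (levels of the 5 genes, depth, genes detected and marker sums), and 3 held a library far from the others by Dixon's ratio, the gap to the nearest library divided by the whole range, above the 95% limit for 4 values. Chance gives about 1 in 20 such groups. No level of the 5 genes was among them. HF library 1 had 13600 genes with a count, against 15084 to 15211 in the other HF libraries (ratio 0.9212), and it was the highest HF library for 2010111I01Rik, Syngr1 and Wdfy1. Ct library 3 had a sum of resident Mφ markers of 2700 CPM, against 1216 to 1445 CPM in the other Ct libraries (ratio 0.8457). HF library 4 had a sum of erythroid markers of 0.858 CPM, against 0 to 0.0745 CPM in the other HF libraries (ratio 0.9131).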

How the results depend on the processing

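Each library held at least 119 counts of each of the 5 genes. The genes called in ECH against Ct numbered 52, whereas DESeq2 called 248, the likelihood ratio test 218 and limma-voom 84, with 8 in a fit of only the groups compared, 22 with the library set as a covariate, 1 within the set and 11 to 95 with 1 library left out (11 without Ct 1, 17 without ECH 3, 95 without Ct 3). In HF against Ct they numbered 55, and 333, 273 and 130 with DESeq2, the likelihood ratio test and limma-voom, 208 with the set as a covariate and 15 to 103 with 1 library left out (15 without Ct 1, 18 without HF 2, 19 without HF 3, 103 without Ct 3). In HF against ECH they numbered 0, and 47, 48, 272 and 370 with DESeq2, the likelihood ratio test, the set as a covariate and within the set.

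The contrasts against Ct chose the 5 genes, so nothing is read from their counts. Over all genes tested, the main fit called 0.356% in ECH against Ct, 0.377% in HF against Ct and 0% in HF against ECH. The numbers called over all genes in the alternatives are given above. Of the 5 genes, 5 were called in ECH against Ct, and 2 in a fit of only the groups compared (Cyth1 and 2010111I01Rik), 0 within the set and 3 to 5 with 1 library left out, the lowest without Ct 1. In HF against Ct 3 were called, and 2 to 3 under every alternative, with 2010111I01Rik lost with the set as a covariate and without Ct 1, Ct 4 or HF 2. In HF against ECH 1 was called, Ttc39c, with DESeq2, the likelihood ratio test, the set as a covariate and within the set. Of the related genes, DESeq2 called 1 lower in ECH against Ct, Acap1 (log2 difference -1.38, FDR = 0.0433). Anpep was the 1 called in HF against Ct with DESeq2, the likelihood ratio test and limma-voom. Psd3 was the 1 called in HF against ECH with the set as a covariate (1.21, FDR = 0.0138) and within the set (1.21, FDR = 0.0152). Acap1 and Psd3 are named for these calls, after their values were seen. The log2 difference of Ttc39c in HF against Ct reversed to -1.21 with the set as a covariate, and that of Syngr1 in HF against ECH to -0.027 without ECH 4, in a range of -0.027 to 0.4355 with 1 library left out. The causes of these differences were not tested. HF and Ct share no set, so no value within a set could be fitted for them.

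Libraries with the same replicate number did not deviate together (correlations of -0.0758 to 0.0833 over 12 pairs, against -0.139 to 0.118 over 36 pairs of other numbers). These values gave no sign that the number pairs mice, and they cannot exclude a pairing. With the replicate number as a block, 22 genes were called in ECH against Ct, 18 in HF against Ct and 0 in HF against ECH, and 3 of the 5 genes in ECH against Ct, without Syngr1 and Ttc39c.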
